A study of Mus musculus with 14 samples.

Results

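The Slit, Robo and netrin guidance genes were followed in the olfactory epithelium of newborn mice in 2 experiments. The set holds 9 genes, taken by symbol: the ligands Slit1, Slit2 and Slit3 with their receptors Robo1 and Robo2, and the ligand Ntn1 (netrin 1) with its receptors Dcc, Unc5b and Unc5c. No threshold on their values was used, but earlier results of these data were known when the set was chosen. All 9 were found among the 51211 gene symbols of both normalized tables, and all 9 passed the filter for testing (a mean of at least 10 in the experiment), as did 19807 genes in the Kir2.1 experiment and 17322 in the PEA experiment. Olfactory sensory neurons (OSNs) sit in this epithelium and send their axons to the olfactory bulb.

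RNA came from the whole olfactory epithelium of 14 individual mice on postnatal day 5 (P5). In the Kir2.1 experiment, 3 mice that carried OMP-IRES-tTA together with tetO-Kir2.1-IRES-tauLacZ were compared with 3 control mice, described as littermates, that were heterozygous for OMP-IRES-tTA alone. The labels title the former mice Kir2.1-Off, a name that the study also uses for mice in which doxycycline later shut the transgene off, but these were taken at P5 and had high Kcnj2, so the name Kir2.1 mice is used for them. By the genotypes given, both groups carried the tTA driver, although the library names of the controls read wt. The driver follows the Omp promoter, so that the Kir2.1 potassium channel is placed in mature OSNs and lowers their spontaneous firing. In the PEA experiment, 4 wild-type pups exposed continuously to the odorant PEA (2-phenylethylamine) from P0 to P5 were compared with 4 unexposed pups. The labels name C57BL/6 as the strain throughout, whereas the methods of the study name CD-1 pups for the PEA experiment. The comparisons ask whether silencing OSNs, or giving them an odor early in life, went with other levels of the genes that guide their axons.

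Slit proteins are secreted and repel growing axons that carry Robo receptors, and Robo2 with Slit1 is known for sorting OSN axons along the dorsal to ventral axis of the bulb. Netrin 1 is a secreted, laminin-related protein that attracts axons through Dcc and repels them where an Unc5 receptor is present. All these proteins also act outside the nervous system, in vessels and connective tissue among other places. In whole tissue, fewer cells of a type and less RNA per cell cannot be told apart.

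Sequence composition set the genes apart in a way that the results return to. The longest transcripts of Slit1 (58.9% G or C), Unc5b (58.7%), Ntn1 (57.8%) and Slit3 (56.8%) were rich in GC. Those of Robo2 (42.4%), Dcc (44.3%), Unc5c (44.3%) and Slit2 (45.5%) were poor in it, and Robo1 lay between them (49.5%). To show the contrast, 1 stretch of 120 bases from within a coding exon is printed for each of 2 GC-rich and 2 GC-poor genes, chosen as the stretch whose GC share is nearest that of the transcript. G and C are in capitals, A and T in lower case, and each is read 5′ to 3′ on the strand of its gene from GRCm38. The Unc5b stretch lies at chr10:60783162-60783281 (minus strand), the Slit1 stretch at chr19:41639747-41639866 (minus strand), the Robo2 stretch at chr16:73899003-73899122 (minus strand) and the Slit2 stretch at chr5:48219665-48219784 (plus strand).
Unc5b: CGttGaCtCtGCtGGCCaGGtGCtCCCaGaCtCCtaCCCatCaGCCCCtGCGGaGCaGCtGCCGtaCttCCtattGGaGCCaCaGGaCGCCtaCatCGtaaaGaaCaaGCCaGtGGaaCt
Slit1: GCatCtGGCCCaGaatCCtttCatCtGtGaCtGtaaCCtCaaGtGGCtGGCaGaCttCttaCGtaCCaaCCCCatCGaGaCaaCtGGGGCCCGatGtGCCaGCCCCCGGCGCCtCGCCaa
Robo2: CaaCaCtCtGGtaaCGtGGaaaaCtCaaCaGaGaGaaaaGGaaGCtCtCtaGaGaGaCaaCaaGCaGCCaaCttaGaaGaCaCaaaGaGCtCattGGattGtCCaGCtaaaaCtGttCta
Slit2: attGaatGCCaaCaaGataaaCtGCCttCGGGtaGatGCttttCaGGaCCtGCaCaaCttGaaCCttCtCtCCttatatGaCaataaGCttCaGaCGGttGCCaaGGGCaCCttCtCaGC
The share of G and C is 58.3% in the Unc5b stretch and 59.2% in the Slit1 stretch, against 42.5% in the Robo2 stretch and 45.8% in the Slit2 stretch.

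Slit2 and Slit3 each host a copy of the same microRNA in an intron, on their own strand: Mir218-1 at chr5:48223942-48224051 and Mir218-2 at chr11:35616816-35616925. Both copies give the mature microRNA below, printed from RefSeq (GRCm38.p6) with its seed, bases 2 to 8, in capitals because it is a feature that both host genes share.
miR-218-5p: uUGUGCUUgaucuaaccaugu
MicroRNA levels were not measured, and the values of Slit2 and Slit3 are those of the host genes.

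The positions of the genes are those of GRCm38. Slit1 (ENSMUSG00000025020) spans chr19:41600257-41743665, Slit2 (ENSMUSG00000031558) chr5:47983138-48307733 and Slit3 (ENSMUSG00000056427) chr11:35121224-35708507. Robo1 (ENSMUSG00000022883, chr16:72308306-73046095) and Robo2 (ENSMUSG00000052516, chr16:73891839-74411825) lie near each other on chromosome 16, on opposite strands. Ntn1 (ENSMUSG00000020902) spans chr11:68209364-68400823, Dcc (ENSMUSG00000060534) chr18:71253634-72351069, Unc5b (ENSMUSG00000020099) chr10:60762593-60831581 and Unc5c (ENSMUSG00000059921) chr3:141465216-141834924. Of the 9, Unc5c alone has exons that overlap those of another gene, the antisense gene Gm15688 on the opposite strand, and the Kir2.1 libraries were described as unstranded, so its reads there cannot be told from those of Gm15688.

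The deposited values are gene-level read estimates that the authors scaled for library depth, called normalized counts here. Their sums per mouse ran from 33049111 to 34198478 in the Kir2.1 experiment and from 11476120 to 12467331 in the PEA experiment, and since they follow normalization they do not give the depth. The commonest of the values near 1, searched only there and taken as about 1 read, lay at 0.959 to 1.044 normalized counts in the Kir2.1 experiment and 0.808 to 1.176 in the PEA experiment. In the Kir2.1 mice Kcnj2, which encodes Kir2.1, lay at 17926 to 24193 against 986 to 1274 in their controls (adjusted p = 0.000157, limma).

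Per length of exon, the genes spanned more than 2 orders of magnitude in the Kir2.1 experiment. In its control mice (n = 3) Ntn1 was highest, at 798 ± 30.3 (SD) normalized counts per kb of exon, followed by Unc5b at 502 ± 54.6 per kb, Robo1 at 295 ± 48.6 per kb, Slit1 at 289 ± 48.6 per kb and Robo2 at 266 ± 28.4 per kb. Slit3 (67.4 ± 30.2 per kb), Slit2 (61.3 ± 7.22 per kb), Dcc (14.6 ± 1.57 per kb) and Unc5c (2.44 ± 0.377 per kb) followed. The mice overlapped between Robo1 and Slit1, Slit1 and Robo2, and Slit3 and Slit2, so these neighbours in the order were not separated by the spread between mice. The Kir2.1 mice gave the same order.
In the PEA control mice (n = 4), by contrast, Robo2 was highest at 175 ± 14.04 (SD) per kb of exon and Robo1 second at 83.8 ± 17.0 per kb. Slit2 (55.2 ± 11.2 per kb), Ntn1 (54.1 ± 5.69 per kb) and Unc5b (51.8 ± 9.35 per kb) were not separated by their spread. Slit3 (18.5 ± 5.36 per kb) and Slit1 (18.1 ± 8.45 per kb) overlapped each other too, as did Unc5c (8.15 ± 1.85 per kb) and Dcc (7.65 ± 2.73 per kb). The exposed mice differed from this order in the middle and at the foot, where Ntn1 (65.3 per kb) and Unc5b (59.7 per kb) stood above Slit2 (50.6 per kb), Slit1 (26.1 per kb) above Slit3 (20.0 per kb) and Dcc (8.04 per kb) above Unc5c (6.91 per kb), each neighbouring pair with overlapping mice.
The experiments differ in library kit (poly-A selection against removal of ribosomal RNA), strain as the methods give it, read length and normalization, which cannot be told apart from each other, so their levels stand side by side without a test. The choice of length matters as well: over the longest transcript in place of all exons, Robo1 (643 per kb) came second after Ntn1 (853 per kb) in the Kir2.1 controls, Robo2 (525 per kb) overlapped Unc5b (535 per kb), and Slit2 (157 per kb) stood above Slit3 (78.2 per kb). In the PEA-exposed mice, over that length, Slit2 (129 per kb) stood above Ntn1 (69.7 per kb) and Unc5b (63.7 per kb). Unc5c (13.7 per kb) stood above Dcc (10.3 per kb). The PEA controls had these genes in the same order over that length, so only the change of order between Slit1 and Slit3 remained.

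**Figure D1:**
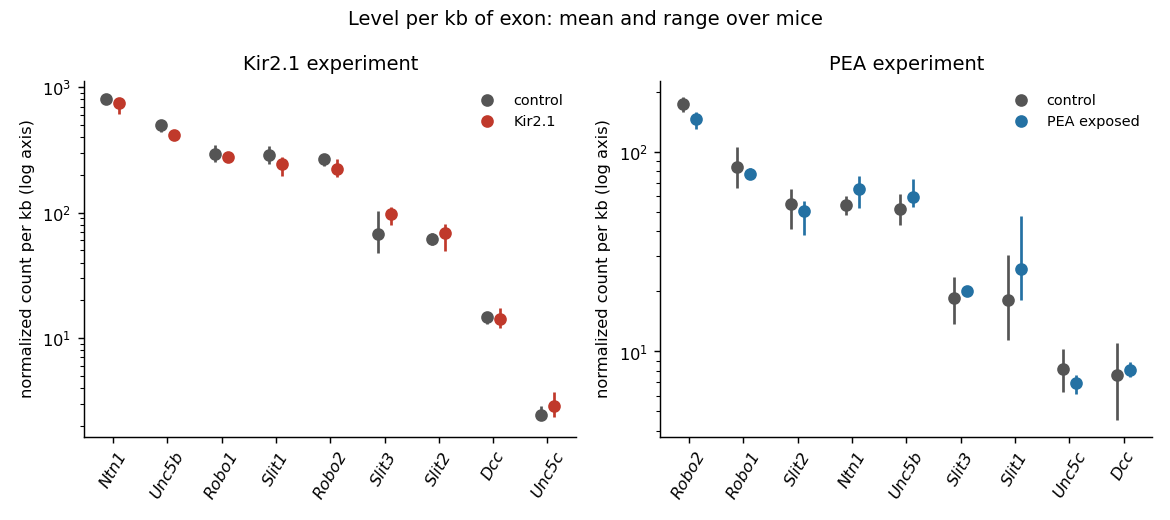
Levels of the 9 genes in normalized counts per kb of exon on a log axis, in the Kir2.1 experiment on the left and the PEA experiment on the right, ordered by the control mean, with points for group means and lines from the lowest to the highest mouse. Ntn1 is highest in the Kir2.1 controls (798 per kb) and Robo2 in the PEA controls (175 per kb).

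None of the 9 guidance genes passed the test in Kir2.1 mice (limma over all tested genes, adjusted p under 0.05), where 0.353% of all tested genes did. In both experiments the study called more genes at that threshold, with its own count model, than limma did here. Whether a count model would call any of the 9 was not tested. At an unadjusted p under 0.05, Unc5b alone of the 9 differed, with a lower level in Kir2.1 mice. Of all tested genes 11.1% had such a p, 6.2% with a lower level. The median log2 fold change (Kir2.1 minus control) was -0.06 over the 9 genes and 0.01 over all tested genes, and 3 of the 9 had a higher fitted level in Kir2.1 mice while 6 had a lower one.

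Among the ligands, Slit1 lay at 1437, 1691 and 2011 normalized counts in controls 1 to 3 and at 1515, 1157 and 1654 in Kir2.1 mice 1 to 3. The groups overlapped, with 1 Kir2.1 mouse below every control, and the fitted log2 fold change was -0.25 (95% interval -0.64 to 0.14, adjusted p = 0.672, limma). Slit2 lay at 1756, 1530 and 1393 in the controls and at 1911, 2067 and 1258 in the Kir2.1 mice. Both the highest and the lowest Slit2 value thus came from Kir2.1 mice, and the log2 fold change was 0.14 (95% interval -0.31 to 0.59, adjusted p = 0.867, limma).
Slit3 had the largest fitted difference of the 9 genes in this experiment. It lay at 317, 290 and 620 in the controls and at 668, 615 and 485 in the Kir2.1 mice. Control 3 sat among the Kir2.1 mice and the other 2 controls below all of them. Its log2 fold change was 0.60 (SE 0.29, 95% interval -0.08 to 1.28, adjusted p = 0.515, limma). With control 3 left out it was 0.94 (adjusted p = 0.113, limma), and with control 2 left out it was 0.40 (adjusted p = 0.810, limma). Control 3 also stood apart in the sum of 8 fibroblast and mesenchyme markers (Col1a1, Col1a2, Col3a1, Dcn, Lum, Pdgfra, Pdgfrb and Twist2), at 188858 against 67733 and 87013 in the other controls and 129645 to 173498 in the Kir2.1 mice. Of these 8 markers none passed the adjusted test, and 4 were higher with Kir2.1 at an unadjusted p under 0.05, beside 4.93% of all tested genes. The median log2 fold change of the 8 was 0.56. The part of these markers in the Slit3 values was not tested.

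The receptor Robo1 lay at 4196, 4648 and 5756 in the controls and at 4536, 4637 and 4703 in the Kir2.1 mice, which fell inside the range of the controls. Its log2 fold change was -0.06 (95% interval -0.33 to 0.21, adjusted p = 0.911, limma). Robo2 lay at 4017, 4982 and 4539 in the controls and at 3500, 3261 and 4531 in the Kir2.1 mice. Kir2.1 mice 1 and 2 were below every control, and Kir2.1 mouse 3 was level with control 3. The log2 fold change was -0.27 (SE 0.14, 95% interval -0.60 to 0.05, adjusted p = 0.546, limma), and it was -0.41 without Kir2.1 mouse 3 (adjusted p = 0.240, limma) and -0.17 without Kir2.1 mouse 2 (adjusted p = 0.789, limma).

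Of the netrin genes, Ntn1 lay at 4954, 4858 and 5224 in the controls and at 3848, 5099 and 5076 in the Kir2.1 mice. Only Kir2.1 mouse 1 left the range of the controls on the low side, and the log2 fold change of -0.11 (95% interval -0.39 to 0.16, adjusted p = 0.810, limma) became 0.02 without that mouse. Dcc, the attractive netrin receptor, lay at 196, 211 and 170 in the controls and at 158, 175 and 229 in the Kir2.1 mice. The Kir2.1 mice reached past the controls on both sides, with a log2 fold change of -0.05 (95% interval -0.47 to 0.36, adjusted p = 0.955, limma).
Unc5b, a netrin receptor that mediates repulsion, lay at 2748, 3303 and 3371 in the controls and at 2599, 2601 and 2656 in the Kir2.1 mice. All Kir2.1 mice were below all controls, and they spread over only 1.24% of their mean (coefficient of variation) against 10.9% in the controls. The groups of 16.3% of all tested genes did not overlap, 9.04% with lower Kir2.1 mice. The log2 fold change was -0.26 (SE 0.09, 95% interval -0.47 to -0.04, unadjusted p = 0.0252, adjusted p = 0.355, limma), a level 0.837 times that of the controls. The exact permutation test (two-sided) gave p = 0.1, the smallest value that 3 against 3 mice allow. With control 2, control 3, Kir2.1 mouse 1 or Kir2.1 mouse 2 left out, the unadjusted p of Unc5b rose above the threshold, to at most 0.0824 (limma). Unc5c, the other repulsive netrin receptor measured, was scarce, at 42.2, 55.1 and 43.1 in the controls and 70.9, 48.1 and 44.6 in the Kir2.1 mice. Kir2.1 mouse 1 was the one mouse above the controls, and the log2 fold change was 0.20 (95% interval -0.41 to 0.80, adjusted p = 0.857, limma).

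**Figure D2:**
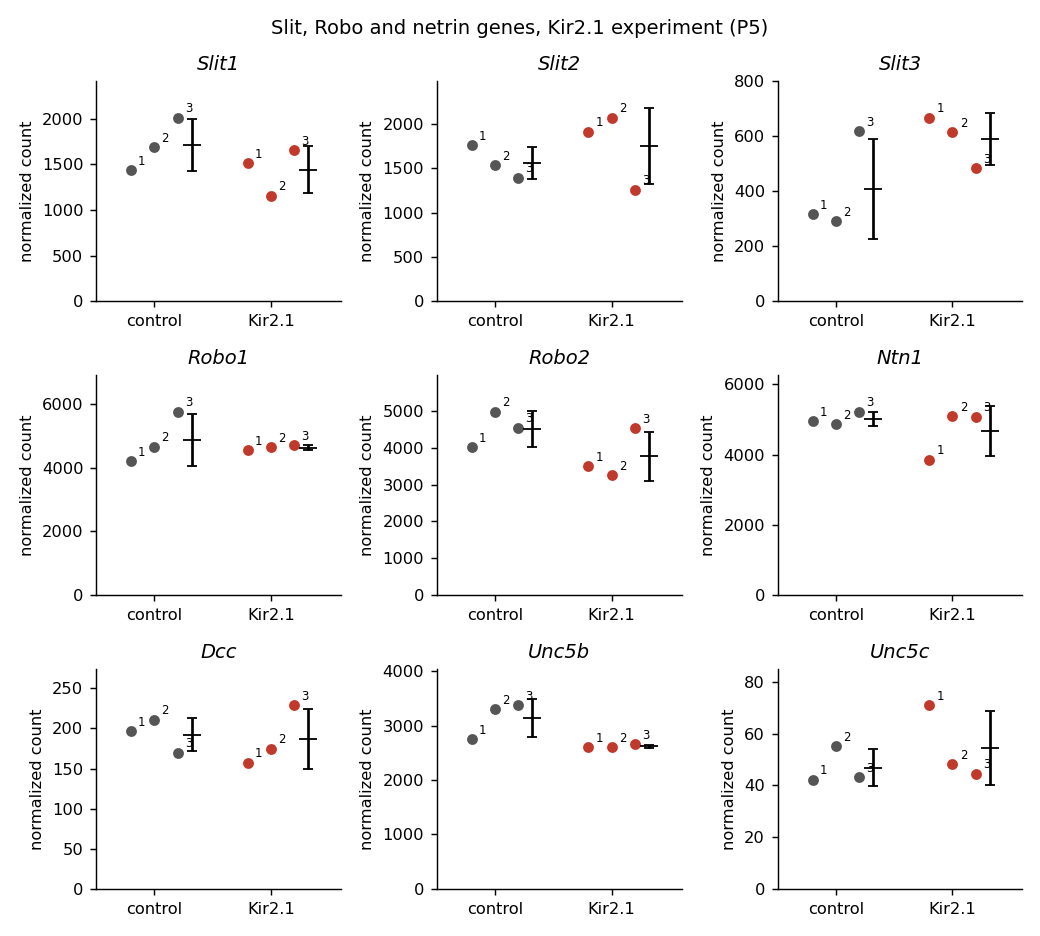
Normalized counts of each gene in the 3 control mice (grey) and the 3 Kir2.1 mice (red), labelled by replicate number, with the group mean and SD in black; each vertical axis starts at 0. Unc5b is the one gene whose groups do not overlap (2748 to 3371 against 2599 to 2656), and control 3 lies among the Kir2.1 mice for Slit3.

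Markers of mature OSNs, where the transgene is placed, were read in the same comparison. The list was chosen with earlier results of these data known. All 9 of Omp, Adcy3, Gnal, Cnga2, Cnga4, Cngb1, Stoml3, Rtp1 and Ano2 were lower with Kir2.1 at an unadjusted p under 0.05, beside 6.2% of all tested genes. Of the 9 markers 1, Omp, passed the adjusted test, and their median log2 fold change was -0.41. Their sum lay at 127554 to 142628 in the controls and at 93977 to 106673 in the Kir2.1 mice, with no overlap. Control 1 had the lowest sum of the controls, and it was also the lowest control for Unc5b. The 7 immature OSN markers, by comparison, had none at an unadjusted p under 0.05, with sums of 95618 to 97426 in the controls and 83823 to 110537 in the Kir2.1 mice. The part of these markers in the Unc5b values was not tested.
Of the other lists at that p, none of 9 basal and progenitor cell markers and none of 5 sustentacular cell markers differed, while 1 of 7 ensheathing glia and 1 of 7 endothelial cell markers was higher in Kir2.1 mice, beside 4.93% of all tested genes. Trpc2, a vomeronasal neuron channel, was lower in Kir2.1 mice (log2 fold change -1.16), at 145 to 225 against 283 to 528 in the controls. The study states that silencing by Kir2.1 reaches vomeronasal neurons as well as OSNs. The vomeronasal receptor genes summed to 8054 in control 1 against 1207 to 1481 in the other 5 mice. Without control 1, Unc5b had a log2 fold change of -0.35 (unadjusted p = 0.0025, adjusted p = 0.228, limma).

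None of the 9 genes passed the adjusted test in PEA-exposed mice either, where 0.179% of all tested genes did. At an unadjusted p under 0.05, Robo2 alone of the 9 differed, with a lower level in exposed mice, beside 15.0% of all tested genes (6.04% with a lower level). The median log2 fold change (exposed minus control) was 0.14 over the 9 genes and -0.02 over all tested genes, with 5 genes fitted higher and 4 lower.

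For Slit1, the controls 1 to 4 lay at 67.9, 180, 84.9 and 96.4 normalized counts and the exposed mice 1 to 4 at 107, 283, 107 and 120. Control 2 and exposed mouse 2, separate mice that share only a number, were each far above the rest of their group. The groups overlapped through control 2. The log2 fold change was 0.48 (SE 0.36, 95% interval -0.32 to 1.29, adjusted p = 0.568, limma), and it was 0.15 without exposed mouse 2 and 0.77 without control 2 (unadjusted p = 0.0469, adjusted p = 0.373, limma). Slit2 lay at 1318, 1042, 1667 and 1591 in the controls and at 1438, 976, 1448 and 1289 in the exposed mice. Here control 2 and exposed mouse 2 were the lowest of their groups, the opposite of Slit1. The log2 fold change was -0.12 (95% interval -0.50 to 0.27, adjusted p = 0.789, limma). Slit3 lay at 138, 84.7, 83.6 and 143 in the controls and at 122, 115, 125 and 124 in the exposed mice. The exposed mice lay inside the range of the controls, with a log2 fold change of 0.16 (95% interval -0.29 to 0.60, adjusted p = 0.757, limma).

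Robo1 lay at 1085, 1753, 1286 and 1413 in the controls and at 1239, 1285, 1370 and 1244 in the exposed mice. The exposed mice were again inside the range of the controls, and the log2 fold change was -0.09 (95% interval -0.39 to 0.22, adjusted p = 0.807, limma).
Robo2 lay at 2702, 3203, 2837 and 3133 in the controls and at 2409, 2610, 2691 and 2211 in the exposed mice. The groups did not overlap, although control 1 and exposed mouse 3 were separated by little. Groups that do not overlap were found for 9.32% of all tested genes, 3.86% with lower exposed mice. The log2 fold change was -0.26 (SE 0.10, 95% interval -0.48 to -0.04, unadjusted p = 0.0247, adjusted p = 0.264, limma), a level 0.835 times that of the controls. The exact permutation test (two-sided) gave p = 0.0286, the smallest value that 4 against 4 mice allow, with no adjustment for the number of genes. With control 2, control 4, exposed mouse 1 or exposed mouse 4 left out, the unadjusted p of Robo2 rose above the threshold, to at most 0.0788 (limma).

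Ntn1 lay at 357, 380, 303 and 317 in the controls and at 403, 479, 426 and 330 in the exposed mice. Exposed mice 1 to 3 were above every control, and exposed mouse 4 was inside their range. The log2 fold change was 0.26 (SE 0.14, 95% interval -0.04 to 0.57, adjusted p = 0.394, limma). Dcc lay at 59.4, 146, 90.7 and 107 in the controls and at 107, 116, 98.3 and 102 in the exposed mice, which lay inside the wide range of the controls. Its log2 fold change was 0.14 (95% interval -0.40 to 0.68, adjusted p = 0.828, limma).
Unc5b lay at 279, 362, 270 and 387 in the controls and at 339, 460, 365 and 331 in the exposed mice. Exposed mouse 2 was above all others and the remaining mice overlapped, with a log2 fold change of 0.21 (95% interval -0.14 to 0.56, adjusted p = 0.569, limma). Unc5c lay at 120, 135, 172 and 198 in the controls and at 143, 117, 122 and 147 in the exposed mice. Controls 3 and 4 were above every exposed mouse while controls 1 and 2 lay among them, and the log2 fold change was -0.22 (95% interval -0.61 to 0.18, adjusted p = 0.607, limma).

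**Figure D3:**
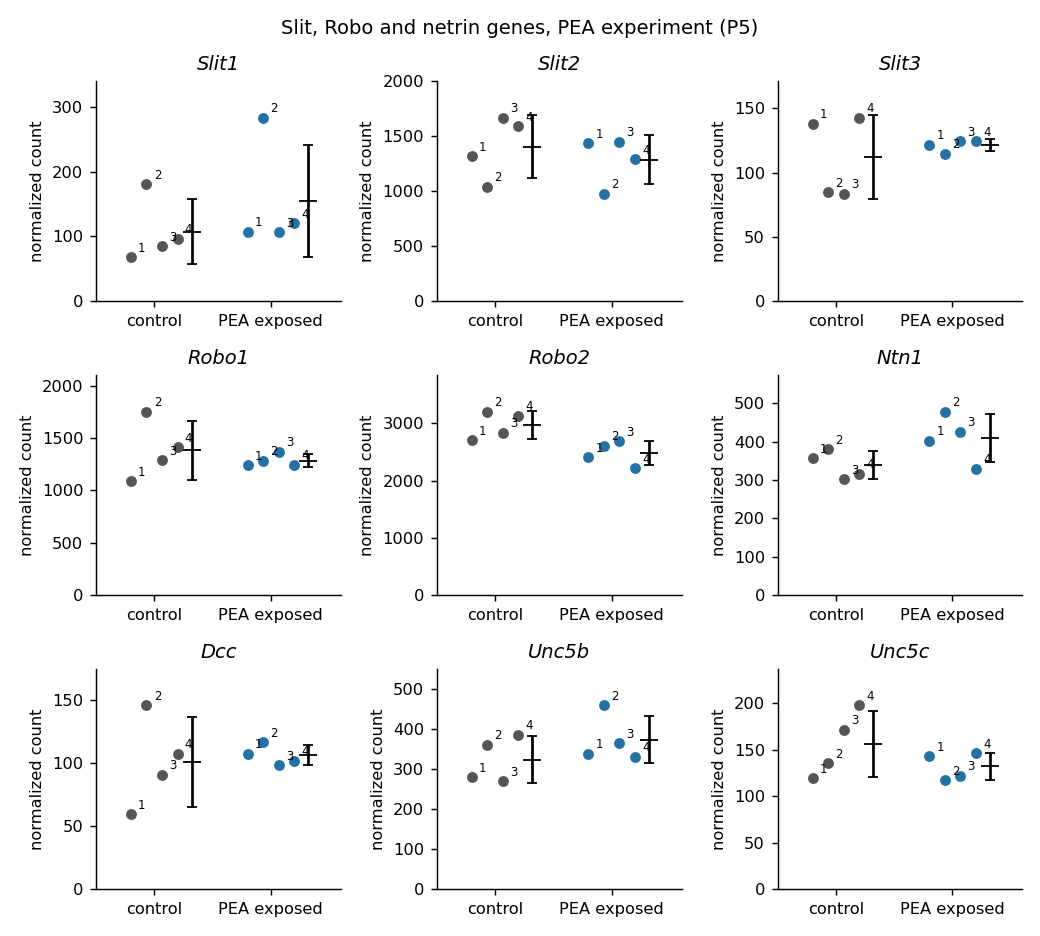
Normalized counts of each gene in the 4 control mice (grey) and the 4 PEA-exposed mice (blue), labelled by replicate number, with the group mean and SD in black; each vertical axis starts at 0. Robo2 is the one gene whose groups do not overlap (2702 to 3203 against 2211 to 2691), and exposed mouse 2 stands far above the others of its group for Slit1 (283).

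**Figure D4:**
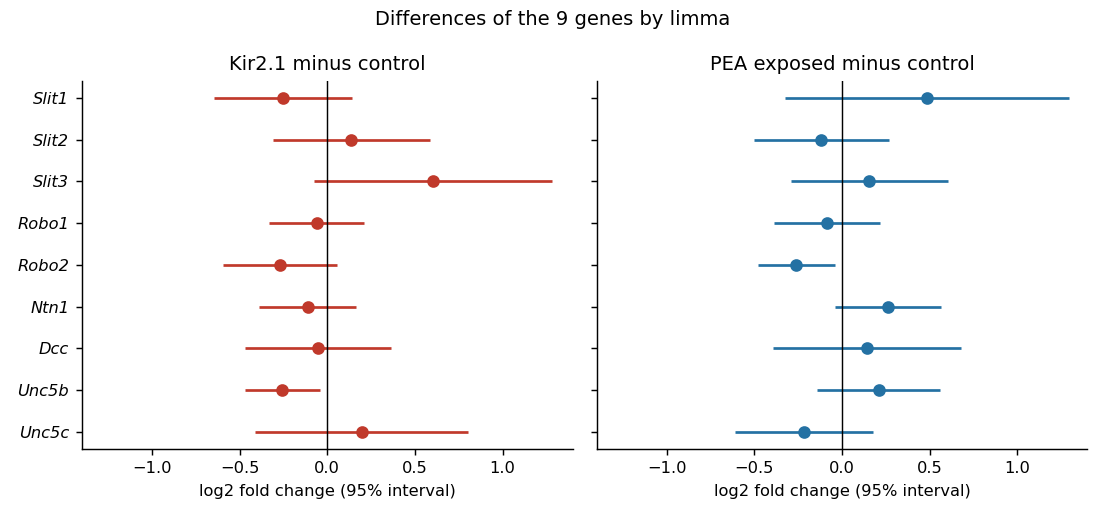
Log2 fold changes of the 9 genes by limma with their 95% intervals, Kir2.1 minus control on the left and PEA exposed minus control on the right, on the log2(normalized count + 1) scale. The interval leaves 0 only for Unc5b in the Kir2.1 experiment (-0.47 to -0.04) and for Robo2 in the PEA experiment (-0.48 to -0.04).

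In the PEA experiment the direction of the genes ran with their GC content. The 4 GC-rich genes (Slit1, Unc5b, Ntn1 and Slit3) all had a higher fitted level in exposed mice, with a median log2 fold change of 0.24, and 4 of the 5 genes under 50% GC (Robo1, Robo2, Slit2 and Unc5c, but not Dcc) had a lower one, with a median over the 5 of -0.12. The same held across the table: 69.2% of 7302 tested genes above 50% GC were fitted higher, with a median log2 fold change of 0.14, but only 29.2% of 9700 genes below it, with a median of -0.11. For each library, the median deviation of the genes in the upper quartile of GC content was set against that of the genes in the lower quartile, a measure called GC tilt here. It was -0.09, -0.14, -0.23 and -0.31 (log2) in controls 1 to 4 and 0.02, 0.48, 0.14 and 0.12 in exposed mice 1 to 4. Controls and exposed mice did not overlap in it, so GC tilt and exposure cannot be told apart as sources of these differences. Exposed mouse 2, the mouse with the high Slit1 value, had the highest tilt. The read estimates had already been made with the GC correction of Salmon.

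After a further correction, in which a smooth curve of deviation on GC content was subtracted from each library (an alternative chosen after seeing the data), none of the 9 genes was left at an unadjusted p under 0.05. Robo2 then had a log2 fold change of -0.12 (unadjusted p = 0.260, adjusted p = 0.754, limma) and Slit1 one of 0.19. The signs of Ntn1 (-0.0031), Unc5b (-0.08) and Slit3 (-0.07) turned, all close to 0, while Dcc moved to 0.25. Such a correction also removes any difference by exposure that follows GC content.
The Kir2.1 experiment showed no such pattern. GC tilt ran from -0.08 to 0.04 in its controls and from -0.06 to 0.06 in the Kir2.1 mice, with overlap, and 52.3% of its genes above 50% GC were fitted higher, against 50.4% of those below. With the same correction Unc5b kept a log2 fold change of -0.26 (unadjusted p = 0.014, adjusted p = 0.293, limma).

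**Figure D5:**
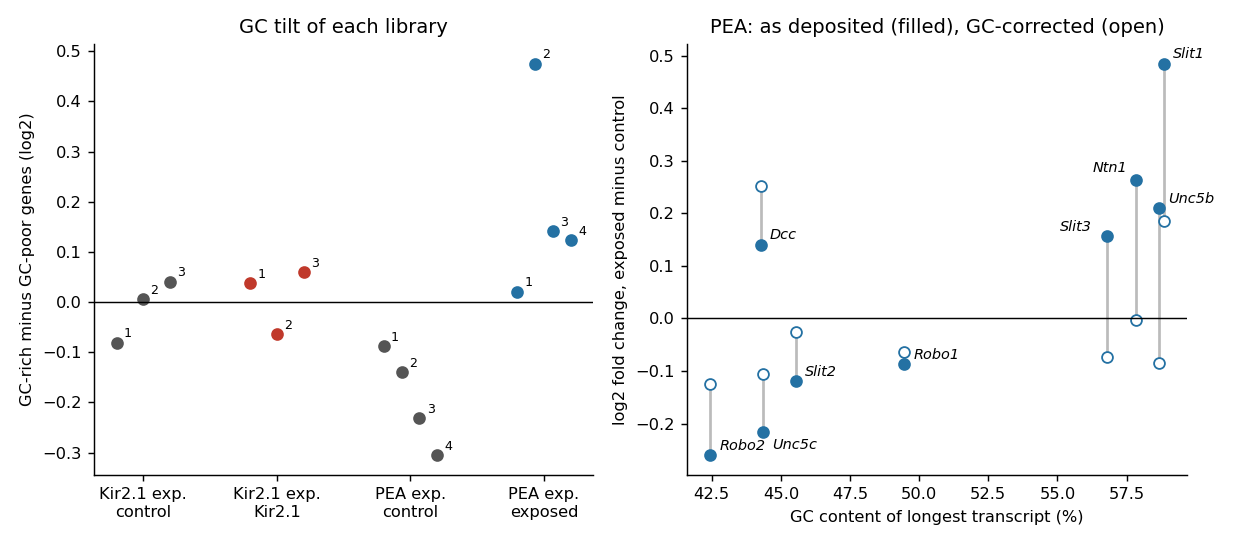
Left, GC tilt of each library in log2 units (median deviation of genes in the upper GC quartile minus that in the lower GC quartile), with replicate numbers; right, log2 fold change of each gene in the PEA experiment against the GC content of its longest transcript in percent, as deposited (filled) and after the GC correction (open). Controls and exposed mice do not overlap in tilt (-0.31 to -0.09 against 0.02 to 0.48), and the correction brings Ntn1 from 0.26 to -0.0031.

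Cell type markers were read in the PEA experiment in the same way. Of 9 mature OSN markers 1 (Omp, log2 fold change 0.31) was higher and 1 lower in exposed mice at an unadjusted p under 0.05, and their sums overlapped, at 31302 to 35447 in the controls and 30540 to 35923 in the exposed mice. Of all tested genes, 8.93% were higher and 6.04% lower at that p. At the same p, 2 of 9 basal and progenitor markers were higher, Krt5 (log2 fold change 0.63) and Krt14 (0.62), as were 1 of 7 immature OSN markers and 1 of 5 sustentacular cell markers. Over the whole basal and progenitor list, 5 markers were fitted higher and 4 lower, with a median log2 fold change of 0.0027. The sums of that list overlapped, at 10348 to 11477 in the controls and 10106 to 11225 in the exposed mice. In the ensheathing glia list 2 of the 5 tested markers were lower, in the fibroblast list 2 of 7 tested were lower, and in the endothelial list none of 7 differed. The fibroblast sums lay at 29503 to 41313 in the controls and 27069 to 33533 in the exposed mice. Vomeronasal receptor genes summed to 8441, 3948, 2281 and 491 in controls 1 to 4 and to 6205, 444, 459 and 428 in exposed mice 1 to 4, an uneven spread in both groups, while Trpc2 did not pass at that p (log2 fold change 0.14). The part of these markers in the Robo2 values was not tested.

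Beyond the 9 genes, 46 others of the Slit, Robo and netrin pathways were listed: 10 extracellular proteins, 10 receptors and partners and 26 intracellular proteins. In the Kir2.1 experiment all 46 were tested and none passed the adjusted test, while 5 had an unadjusted p under 0.05, all of them higher with Kir2.1, beside 11.1% of all genes at that p in either direction and 4.93% higher. Their median log2 fold change was 0.01, like that of all genes (0.01). Of the extracellular proteins the netrin relatives Ntn3 (78.2 ± 14.2 in controls, 139 ± 30.1 in Kir2.1 mice, SD, n = 3 each), Ntn5 (39.0 ± 5.28 and 69.1 ± 3.41) and Ntng2 (11.2 ± 4.35 and 25.6 ± 8.63) had log2 fold changes of 0.81, 0.82 and 1.14. All 3 were scarce beside Ntn1. Among the receptors, Robo4, the Robo of endothelial cells, lay at 62.4 ± 14.1 and 119 ± 38.8 (log2 fold change 0.91), and Flrt2, a membrane ligand of Unc5 receptors, at 439 ± 77.9 and 648 ± 87.9 (log2 fold change 0.57). The adjusted p of these 5 lay between 0.207 (Ntn5) and 0.407 (Ntng2; limma). Their groups did not overlap, as for 16.3% of all genes in either direction. The 5 were picked by their p in the same mice, so the lack of overlap is no separate result. None of the 26 intracellular proteins had an unadjusted p under 0.05.

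In the PEA experiment 43 of the 46 were tested and none passed the adjusted test, with 4 higher and 4 lower at an unadjusted p under 0.05 (beside 8.93% and 6.04% of all genes) and a median log2 fold change of -0.08. Arhgap39, a Rac and Cdc42 GTPase-activating protein that binds Robo, had the smallest p, at 151 ± 28.5 in controls and 257 ± 28.8 in exposed mice (SD, n = 4 each, log2 fold change 0.78, adjusted p = 0.0976, limma). The kinase Src (log2 fold change 0.52), the adaptor Nck2 (0.39) and the heparan sulfate proteoglycan Gpc1 (0.40) were the others higher. Dapk1, a death-associated kinase that acts downstream of Unc5 receptors, lay at 913 ± 240 in controls and 545 ± 111 in exposed mice (log2 fold change -0.73, adjusted p = 0.158, limma). Sos1, a Ras and Rac exchange factor (-0.43), Enah, an actin regulator (-0.32), and Flrt2 (-0.32) were the others lower. The transcripts of the 4 higher genes held 53.9% (Nck2) to 59.3% (Src) GC. Those of Sos1 (41.0%), Flrt2 (41.8%) and Enah (44.2%) held less, and that of Dapk1 held 53.2%. After the GC correction 3 of the 43 had an unadjusted p under 0.05, 1 higher and 2 lower. The share of all genes at that p under the correction was not counted. Without that correction, Flrt2 was on the higher side in the Kir2.1 experiment and on the lower side in the PEA experiment, and the difference between the experiments was not tested.

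The genes also varied between mice of the same group. Values were centred on their group mean and compared over all 14 mice with the 15079 genes tested in both experiments (gene models, Rik genes and pseudogenes left out), a description in which the mice share library preparation and composition within an experiment. The 2 genes named for each member are those with the highest of these 15079 correlations. How high such top values would come for unrelated genes was not tested, nor was any part of cell types in them. Unc5b varied most like Mtss2 (r = 0.97) and Adcy3 (r = 0.97), the adenylyl cyclase of OSN cilia, and Robo2 most like Gnal (r = 0.87), the olfactory G protein subunit, and Galnt15 (r = 0.86). Adcy3 and Gnal are on the list of mature OSN markers, and their log2 fold changes were -0.54 and -0.41 in the Kir2.1 experiment and 0.20 and -0.37 in the PEA experiment. Their transcripts hold 56.7% and 49.0% GC. Slit3 varied most like Col5a1 (r = 0.88), a collagen of connective tissue, and Itgb3 (r = 0.87), an integrin subunit. Slit1 varied most like Slc25a22 (r = 0.94) and Mapk8ip1 (r = 0.92), whose transcripts hold 57.6% and 59.6% GC. For Slit1 that likeness was weaker within the Kir2.1 experiment (r = 0.45 and 0.61 over its 6 mice) than within the PEA experiment (r = 0.97 and 0.96 over its 8). The likeness of Robo2 to Gnal was, conversely, weaker within the PEA experiment (r = 0.71) than within the Kir2.1 experiment (r = 0.95). For Galnt15 the values were 0.86 and 0.91.
The nearest genes were Crkl (r = 0.95) and Gem (r = 0.92) for Robo1, Pof1b (r = 0.90) and Prdm9 (r = 0.89) for Slit2, Dclk1 (r = 0.95) and Slc25a27 (r = 0.95) for Dcc, Lima1 (r = 0.94) and Map6 (r = 0.88) for Ntn1, and Ccl28 (r = 0.93) and Kcnmb2 (r = 0.87) for Unc5c. Within the set, Slit1 varied with Unc5b (r = 0.76) and against Slit2 (r = -0.76), so the 3 Slit ligands did not vary together. Ntn1 varied against Unc5c (r = -0.79), the lowest value among the pairs. The transcripts of Slit1 (58.9%), Unc5b (58.7%) and Ntn1 (57.8%) are rich in GC, those of Slit2 (45.5%) and Unc5c (44.3%) poor in it. These pairs were not split by experiment, and the part of GC tilt in them was not tested.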

How the data were processed

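Whole olfactory epithelia of 14 individual P5 mice were analysed. By the study's methods, unstranded 40 bp reads of poly-A RNA were made in the Kir2.1 experiment, and stranded 150 bp reads of RNA depleted of ribosomal RNA in the PEA experiment. The deposited values are a normalized signal per gene: the authors estimated transcript counts with Salmon 1.3.0 (GRCm38, Ensembl release 100, set to reverse-stranded reads for all libraries, with its sequence and GC bias options), summed them per gene with tximport and scaled them with DESeq2 1.30.0, each experiment by itself. A reverse-stranded setting on unstranded reads may leave out part of the Kir2.1 reads, which was not tested. Only 14.9% to 18.9% (Kir2.1) and 6.41% to 8.58% (PEA) of all values above 0 were whole multiples of the commonest value near 1 (tolerance 0.02 of that value). Whole reads were thus not recovered, no count model was run, and the depth is not known.

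Within each experiment, log2(value + 1) of genes whose mean reached 10 was fitted in R 4.3.3 by limma 3.58.1 (moderated with a trend, two-sided, Benjamini-Hochberg adjustment over all tested genes, threshold 0.05). This scale understates changes of low genes. Exact permutation tests were run for single genes. Nothing in the labels says that mice of a group came from separate litters. The test was first tried on simulated data. Summaries and plots were made in Python 3.11.15 (scipy 1.17.1, pandas 2.3.3, numpy 2.4.6, matplotlib 3.10.9). Positions, exon lengths and transcript GC came from GENCODE vM21 (GRCm38), and 97.9% and 98.2% of tested genes had a GC value. All 9 members are named, with the pathway genes at an unadjusted p under 0.05 and, for each member, the 2 genes most like it. The members, gene lists and marker lists were chosen with earlier results of these data known. Alternatives were limma without trend, pseudocounts of 0.5 and 5, a filter at a mean of 50 or none, robust limma, median centring, quantile normalization, a replicate block, a vomeronasal receptor covariate, leaving out each mouse and, chosen after seeing the data, a GC correction with and without the block.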

Additional observations from a re-analysis of the deposited data

Results flagged for a closer look

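Each group of 4 mice was checked, for each of the 9 genes, for a mouse whose gap to the nearest other mouse was large for the range of its group (Dixon's 95% critical value of 0.829 for 4 samples), a check that chance passes in about 1 of 20 groups. Of 18 groups 1 held such a mouse: Slit1 in PEA-exposed mouse 2, at 283 normalized counts against 107, 107 and 120 in the other exposed mice. The same mouse had the highest GC tilt, 0.48, against 0.02 to 0.14 in the other exposed mice, and Slit1 has the highest GC content of the 9 genes, 58.9%. Without this mouse the log2 fold change of Slit1 was 0.15 in place of 0.48, and without control 2, the highest control (180), it was 0.77.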

How the results depend on the processing

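No guidance gene passed the adjusted test under any of the 18 alternatives of the Kir2.1 experiment or the 20 of the PEA experiment. The adjusted p (limma) ranged from 0.220 to 0.691 for Unc5b in the Kir2.1 experiment and from 0.214 to 0.785 for Robo2 in the PEA experiment. In the Kir2.1 experiment 70 genes were called, against 20 by limma without trend, 22 with the vomeronasal receptor covariate and 23 to 44 with 1 mouse left out. Of the 9 members, 1 had an unadjusted p under 0.05. This count became 0 without trend and 0 to 3 with 1 mouse left out. The 3 (Robo2, Slit2 and Unc5b) were found without Kir2.1 mouse 3. Without control 3 the 1 member was Slit3, higher (unadjusted p = 0.000988, adjusted p = 0.113, limma), with Unc5b at an unadjusted p of 0.0824 (limma). The 5 pathway genes became 4 to 8 with 1 mouse left out. For these alternatives and those below, the share of all tested genes at that p was not counted. In the PEA experiment 31 genes were called, against 52 without a filter, 20 with the covariate and 19 to 43 with 1 mouse left out. The 1 member there became 0 by quantile normalization, 0 with the GC correction and 0 to 1 with 1 mouse left out (Slit1, higher, without control 2, and Ntn1, higher, without exposed mouse 4, in place of Robo2), and the 8 pathway genes became 3 with the GC correction and 5 to 10 with 1 mouse left out.

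Mice with the same replicate number did not deviate together (correlations of -0.06, -0.01 and 0.16 in the Kir2.1 experiment and 0.13, -0.02, -0.05 and 0.10 in the PEA experiment), so the numbers were not taken as pairs. PEA control 4 carries the number 5 in its library name. With the replicate block, 9 genes were called in the Kir2.1 experiment, 23 in the PEA experiment, and 2 members in the PEA experiment had an unadjusted p under 0.05 (Robo2 and Slit1). With the block and the GC correction together, 4 and 17 genes were called, and the PEA counts were 0 members and 3 pathway genes.

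Signs turned for Slit3 (-0.074), Ntn1 (-0.0031) and Unc5b (-0.084) in the PEA experiment with the GC correction, with and without the block. With 1 mouse left out, log2 fold changes in the Kir2.1 experiment crossed 0 for Robo1 (-0.16 to 0.067), Slit2 (-0.0019 to 0.36), Dcc (-0.21 to 0.061), Ntn1 (-0.18 to 0.022) and Unc5c (-0.0040 to 0.32), and in the PEA experiment for Robo1 (-0.20 to 0.034), Slit2 (-0.25 to 0.0083) and Dcc (-0.087 to 0.34). None of these had passed a threshold. Without crossing 0, the range was -0.37 to -0.10 for Slit1, -0.41 to -0.17 for Robo2 and 0.40 to 0.94 for Slit3 in the Kir2.1 experiment, and 0.15 to 0.77 for Slit1, 0.031 to 0.29 for Slit3, 0.11 to 0.30 for Unc5b and -0.33 to -0.094 for Unc5c in the PEA experiment. The causes were not tested.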
